A study of Homo sapiens with 6 samples.

Results

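Transcript levels of 36 genes of glutamate signalling and glutamate metabolism were compared between a pair of human breast carcinoma lines. The genes were taken from a list of receptors, receptor-associated and scaffold proteins, and enzymes, and each was read from its brightest probe set over the 6 arrays among those annotated to that gene alone. Of the 36 genes, 35 were measured, among 11963 genes tested in all. GLS2 was the gene not analysed here. The 35 comprised 21 receptor genes, 5 genes of associated and scaffold proteins and 9 enzymes.

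The 6 arrays came from SUM44 and LCCTam, 3 cultures each, and the titles call them biological replicates. Both are labelled as lines of invasive lobular breast carcinoma with estrogen and progesterone receptors. The SUM44 line is labelled sensitive to tamoxifen, and its cultures had received 4-hydroxytamoxifen (4HT, an active metabolite of tamoxifen) at 500 nM for 24 hours. The LCCTam line, known as a tamoxifen-resistant derivative of SUM44, is labelled resistant, and its cultures had been without 4HT for 14 days. Line and drug exposure therefore differ together and cannot be told apart, and each line stands for its type alone. The comparison asks how transcripts differ in the resistant line away from the drug from those of the sensitive line under it. Values are log2 expression levels, and differences are LCCTam minus SUM44. A gene was called when its adjusted p was under 0.05 over all genes tested. The arrays measured whole cultures, so more cells with a transcript and more transcript per cell cannot be told apart.

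Glutamate is the main excitatory transmitter of the brain, where it acts on ionotropic receptors (AMPA, NMDA and kainate types, each an ion channel built of several subunits) and on metabotropic receptors, which couple to G proteins. In dividing cells of other tissues it is better known as a hub of nitrogen metabolism. Aminotransferases exchange its amino group with other amino acids, glutamine synthetase stores ammonia in it as glutamine, glutamate dehydrogenase feeds its carbon to the citric acid cycle, and glutamate decarboxylases turn it into the transmitter GABA.

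The LCCTam arrays were less alike than the SUM44 arrays, with correlations over genes of 0.958 to 0.987 against 0.994 to 0.995. Against the SUM44 arrays, correlations were 0.972 to 0.974 for LCCTam replicate 1 and 0.923 to 0.941 for LCCTam replicate 3. The 27 probe sets for poly-A spike-in RNA averaged between 6.42 and 6.82 in the SUM44 arrays and between 6.80 and 7.37 in the LCCTam arrays. Their part in the differences below was not tested. The median difference over all genes was 0.08. No detection calls were used here, so a gene is named dim where its mean lay under 5.93, the lower quartile of gene means, in both groups. A level of a probe set cannot be set against that of another, because probes bind with different strength.

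Of the 35 genes, 2 enzymes were called, both higher in LCCTam. They were GAD1, a glutamate decarboxylase, and GOT2, the mitochondrial aspartate aminotransferase. Among all genes 9.18% were called higher and 6.60% lower, so 2 of 35 higher and 0 of 35 lower does not exceed the background. Both were among the 23 members that were not dim, and 19.9% of all genes that were not dim were called in either direction. No gene of a receptor was called, and the only receptor gene at an unadjusted p under 0.05 was GRIA2. In all, 7 of the 35 reached an unadjusted p under 0.05 (6 higher, and GLUL lower), beside 31.4% of all genes. In 9 members every LCCTam array lay above every SUM44 array, and in 1 member below, where the shares over all genes were 21.8% and 13.5%. The median difference was 0.14 over the 35. Without LCCTam replicate 1 the calls numbered 7 higher (GAD1, GOT1, GOT2, BCAT2, HOMER2, GRIN2D and GRIK2) and 1 lower (HOMER1), among 4241 genes called in all, and without any of the other 5 arrays GAD1 was the only gene of the 35 called.

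**Figure D1:**
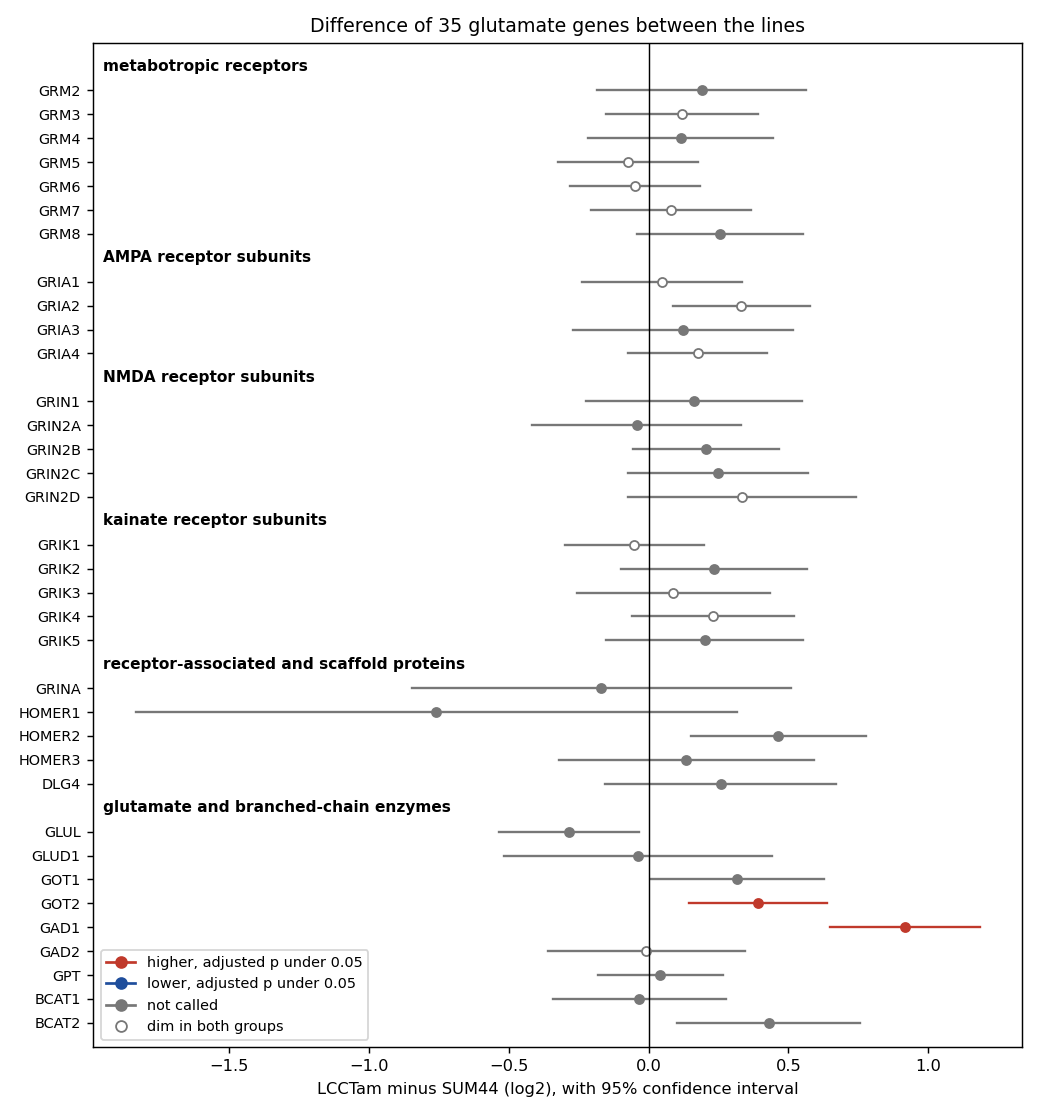
The difference between LCCTam and SUM44 (log2, horizontal axis) is plotted for the 35 measured genes by role, with 95% confidence intervals from the moderated fit; open circles mark genes that were dim in both groups. GAD1 (0.92) and GOT2 (0.39) are the called genes, and HOMER1 has the widest interval, from -1.83 to 0.32.

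GAD1 encodes the decarboxylase that makes GABA from glutamate through the cell body, and it is best known from inhibitory neurons and pancreatic islets. It stood at 6.78, 6.64 and 6.64 in SUM44 replicates 1, 2 and 3 and at 7.54, 7.77 and 7.50 in LCCTam replicates 1, 2 and 3. All LCCTam arrays lay above all SUM44 arrays, with a gap between the groups wider than the spread within either. The means were 6.69 ± 0.09 (SD, n = 3) and 7.60 ± 0.15, a 1.89-fold difference (0.92 ± 0.12 SE, adjusted p = 0.00259 by limma). Leaving out each array in turn gave adjusted p-values of 0.000634 to 0.0209, so the call was kept each time.

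The array carried 3 probe sets for GAD1, and all read higher in LCCTam. The second brightest gave 6.37, 6.29 and 6.21 in SUM44 and 7.53, 8.26 and 7.75 in LCCTam, a difference of 1.56 ± 0.18 SE (adjusted p = 0.00249 among all probe sets). The dimmest read 4.47, 4.29 and 4.43 against 4.84, 4.69 and 4.60 and was not called (0.31, adjusted p = 0.0991). The size of the GAD1 difference thus depended on the probe set, and its direction did not. GAD2, which encodes the decarboxylase of nerve terminals, was dim, and its brightest probe set gave -0.01 ± 0.15 SE, with a 95% confidence interval of -0.36 to 0.34.

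**Figure D2:**
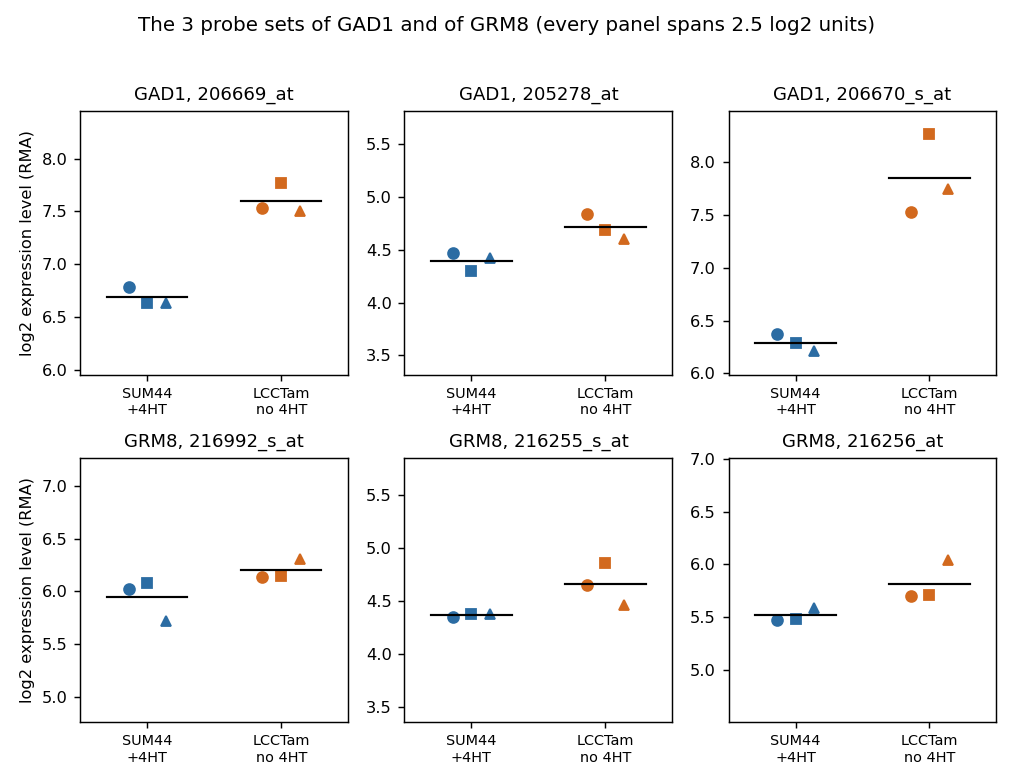
Levels (log2, vertical axis) of the 3 probe sets of GAD1 (upper row) and of GRM8 (lower row) are shown for each array; circles, squares and triangles are replicates 1, 2 and 3, and lines are group means. The LCCTam points lie above the SUM44 points at each of the 6 probe sets.

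GOT2 makes aspartate and 2-oxoglutarate from glutamate and oxaloacetate in mitochondria and, with its cytosolic counterpart GOT1, carries the malate-aspartate shuttle. It was at 10.69, 10.63 and 10.45 in SUM44 replicates 1, 2 and 3 and at 10.93, 11.01 and 11.01 in LCCTam. The groups did not overlap, and the LCCTam arrays were close together. The difference was 0.39 ± 0.11 SE, or 1.31-fold (adjusted p = 0.045). That call lay near the threshold. It was lost without each array other than LCCTam replicate 1 (adjusted p = 0.0717 to 0.174, with differences of 0.32 to 0.44), after centring on array medians (0.0514) and after cyclic loess (0.0579).

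GOT1 showed the same direction without a call. Its levels were 9.10, 9.14 and 8.98 in SUM44 and 9.18, 9.38 and 9.61 in LCCTam, with no overlap but with LCCTam replicate 1 only just above the SUM44 arrays. The difference was 0.32 ± 0.13 SE (adjusted p = 0.151), 0.42 without LCCTam replicate 1 (adjusted p = 0.0265) and 0.21 without LCCTam replicate 3 (adjusted p = 0.31). GPT, the cytosolic alanine aminotransferase, differed by 0.04, with an interval of -0.18 to 0.26. Its probe set is marked as able to bind related transcripts.

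BCAT2, the mitochondrial aminotransferase of leucine, isoleucine and valine, was at 8.29, 8.35 and 8.16 in SUM44 and at 8.42, 8.83 and 8.84 in LCCTam. LCCTam replicate 1 again lay nearest to SUM44. The difference was 0.43 ± 0.14 SE (adjusted p = 0.0806), and 0.57 without that array (adjusted p = 0.00496). A dimmer probe set of BCAT2 gave 0.26. Its cytosolic counterpart BCAT1 differed by -0.03, with an interval of -0.34 to 0.28, and a dimmer probe set gave 0.06.

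GLUL, glutamine synthetase, was the enzyme with the largest lower difference. It was at 11.44, 11.51 and 11.58 in SUM44 and at 11.23, 11.34 and 11.10 in LCCTam. All LCCTam arrays lay below all SUM44 arrays, by a small margin. The difference of -0.28 ± 0.11 SE was not called (adjusted p = 0.119), and its other probe sets gave -0.26 and -0.19. GLUD1, glutamate dehydrogenase, was at 10.34, 10.21 and 10.23 in SUM44 and at 10.51, 10.44 and 9.73 in LCCTam, where replicate 3 fell below the SUM44 arrays and the others lay above them. Its difference was -0.04, and that of a further probe set 0.11. GLUD1 has near-identical copies in the genome, so its value is uncertain.

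**Figure D3:**
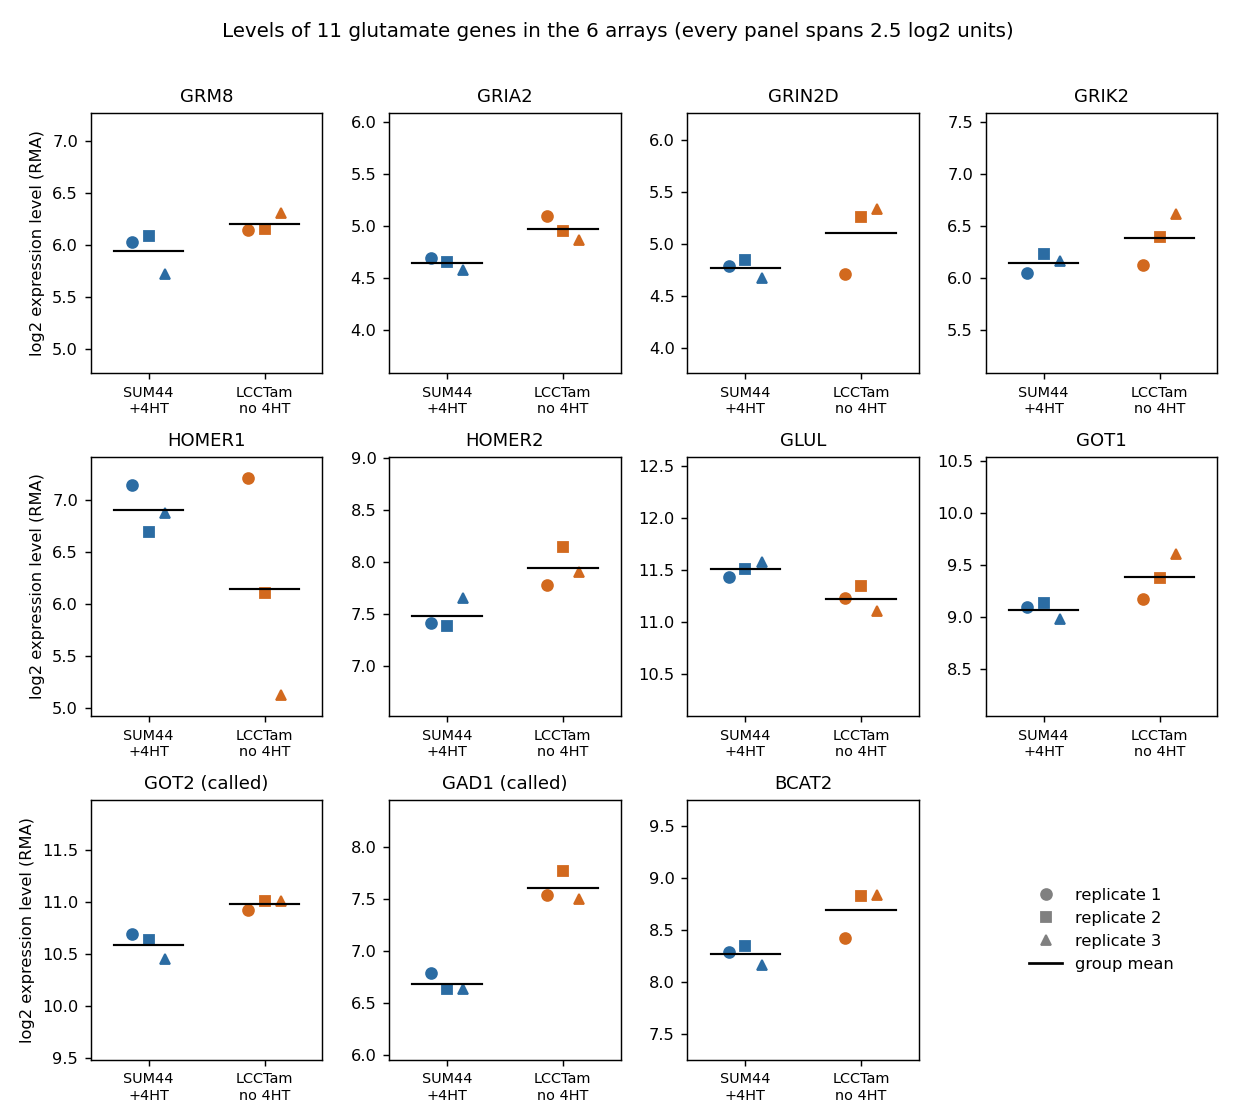
Levels (log2, vertical axis) of 11 genes are shown for each array, with SUM44 in blue and LCCTam in orange, replicates 1, 2 and 3 as circles, squares and triangles, and lines at group means. GAD1 and GOT2, the called genes, separate the groups, as do GRM8, GRIA2, HOMER2, GLUL, GOT1 and BCAT2, which were not called. LCCTam replicate 1 of HOMER1 (7.21) lies above all 3 SUM44 arrays.

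The promoters of the called enzymes are shown with those of GOT1 and of ASNS, the gene of the wider pathway with the largest difference, because genes of amino acid supply are known to share a short element there. This amino acid response core, TGATGNAA on either strand, is the site where ATF4 and its partners bind in the ASNS promoter. Each sequence holds the 250 bases before the RefSeq start site (GRCh38.p14), written in the direction of transcription, with matches in capitals.
GAD1, chr2:170816637-170816886, plus strand: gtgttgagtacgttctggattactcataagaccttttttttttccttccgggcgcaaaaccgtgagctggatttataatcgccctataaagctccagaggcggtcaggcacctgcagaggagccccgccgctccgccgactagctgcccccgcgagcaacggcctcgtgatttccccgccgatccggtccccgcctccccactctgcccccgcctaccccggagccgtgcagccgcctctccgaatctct
GOT2, chr16:58734317-58734566, minus strand: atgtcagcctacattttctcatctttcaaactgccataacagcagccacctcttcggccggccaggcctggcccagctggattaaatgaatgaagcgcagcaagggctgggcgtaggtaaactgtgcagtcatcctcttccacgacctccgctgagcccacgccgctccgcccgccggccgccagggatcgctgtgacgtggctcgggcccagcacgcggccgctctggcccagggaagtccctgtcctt
GOT1, chr10:99430625-99430874, minus strand: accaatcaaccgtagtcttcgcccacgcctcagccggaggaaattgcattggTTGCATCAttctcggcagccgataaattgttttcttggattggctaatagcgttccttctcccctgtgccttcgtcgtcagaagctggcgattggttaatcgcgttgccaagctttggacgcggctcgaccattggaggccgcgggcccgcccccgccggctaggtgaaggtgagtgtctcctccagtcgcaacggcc
ASNS, chr7:97872409-97872658, minus strand: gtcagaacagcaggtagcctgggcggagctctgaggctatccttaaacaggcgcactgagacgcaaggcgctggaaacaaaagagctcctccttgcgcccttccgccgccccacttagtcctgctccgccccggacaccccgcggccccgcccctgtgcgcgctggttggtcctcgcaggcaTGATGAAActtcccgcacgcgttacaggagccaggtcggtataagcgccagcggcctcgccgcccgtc
The ASNS window held TGATGAAA, beginning 68 bases before the start site, and the GOT1 window held the reverse form TTGCATCA, beginning 198 bases before it. No match was found in the windows of GAD1 or GOT2. RefSeq listed promoters for 28 of the 35 genes, and 3 of them (GOT1, BCAT1 and GRM7) had a match, or 10.7%, beside 3.89% of all 27305 genes with a listed promoter. Several genes have more than 1 listed start, and a gene counted when any window matched, so genes with more starts had more windows to match. Counted by window, 3 of 55 matched, or 5.45%, beside 3.14% of all 35116 windows. Of the 3 genes with a match, none was called, and BCAT1 and GRM7 differed by -0.03 and 0.08. The palindromic estrogen response element was in 0 of the 28 genes and in 0.0513% of all genes.

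Among the 21 receptor genes 0 were called in either direction, beside 15.8% of all genes and 2.11% of the 2752 dim genes. Of the 21, 11 were dim in both groups. Differences ran from -0.07 to 0.33 with a median of 0.16, and 95% confidence intervals reached from -0.42 to 0.74, so that every interval lay within a 2-fold change. In all, 17 of the 21 were positive, or 81%, beside 63% of all genes. After cyclic loess 16 were positive (76.2%, beside 50.3% of all genes), with a median of 0.08. The count was 13 without LCCTam replicate 3 (61.9%, beside 56.7% of all genes), with a median of 0.06. It was 19 with the mean of each gene's probe sets and 18 without SUM44 replicate 2, beside 63.4% and 64.8% of all genes. None of the 37 receptor probe sets was called.

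Of the metabotropic receptors, GRM8, which inhibits adenylyl cyclase and acts at nerve terminals, had the largest difference. It read 6.02, 6.08 and 5.72 in SUM44 and 6.14, 6.15 and 6.31 in LCCTam. The groups did not overlap, and SUM44 replicate 3 lay well below the other arrays. The difference was 0.26 ± 0.13 SE (adjusted p = 0.222), and 0.15 without SUM44 replicate 3. Its dimmer probe sets gave 0.30 and 0.30, each with groups that did not overlap (adjusted p = 0.157 and 0.154), and the mean of the 3 gave 0.28 (adjusted p = 0.0681). The related receptors GRM4 and GRM7 differed by 0.11 and 0.08, GRM6 of retinal bipolar cells by -0.05, GRM2 by 0.19, GRM3 by 0.12 and GRM5, which couples to phospholipase C, by -0.07. A second probe set of GRM5 gave 0.20. GRM3, GRM5, GRM6 and GRM7 were dim.

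Of the AMPA receptor subunits, GRIA2, which limits the calcium permeability of the channel, was nearest to a call. Its levels were 4.69, 4.65 and 4.57 in SUM44 and 5.09, 4.95 and 4.87 in LCCTam. All LCCTam arrays were higher, at a dim signal in both groups. The difference was 0.33 ± 0.11 SE, or 1.26-fold (adjusted p = 0.0745). With an intensity trend and robust fitting it was called (adjusted p = 0.0469), and the alternatives ranged from that value to 0.241. GRIA4 also did not overlap between groups (0.18 ± 0.11 SE, adjusted p = 0.311), at 4.99 to 5.12 in SUM44 and 5.15 to 5.37 in LCCTam. GRIA1 differed by 0.05 and GRIA3 by 0.12, and the groups of each overlapped.

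Of the NMDA receptor subunits, GRIN2D, a regulatory subunit best known from development, had the largest difference. It was at 4.79, 4.85 and 4.68 in SUM44 and at 4.71, 5.26 and 5.34 in LCCTam. LCCTam replicate 1 lay within the SUM44 range and the other LCCTam arrays above it. The difference was 0.33 ± 0.17 SE (adjusted p = 0.245), 0.53 without LCCTam replicate 1 (adjusted p = 0.00693) and 0.21 without LCCTam replicate 3 (adjusted p = 0.506), from a dim probe set marked as able to bind related transcripts. GRIN1, the subunit that every NMDA receptor needs, differed by 0.16 ± 0.17 SE, and its 4 dimmer probe sets by 0.04 to 0.30. The GRIN1 probe set used, like some of the dimmer ones, is marked as able to bind related transcripts. GRIN2B and GRIN2C differed by 0.21 and 0.25 and GRIN2A by -0.04, with overlapping groups.

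Of the kainate receptor subunits, GRIK2 had the largest difference. It read 6.05, 6.23 and 6.16 in SUM44 and 6.13, 6.40 and 6.62 in LCCTam, with LCCTam replicate 1 inside the SUM44 range. The difference was 0.23 ± 0.14 SE (adjusted p = 0.312), 0.36 without LCCTam replicate 1 (adjusted p = 0.049) and 0.12 without LCCTam replicate 3 (adjusted p = 0.652). A much dimmer probe set gave 0.03. GRIK4 did not overlap between groups, at 5.33 to 5.49 in SUM44 and 5.51 to 5.87 in LCCTam (0.23 ± 0.12 SE, adjusted p = 0.259). GRIK1, GRIK3 and GRIK5 differed by -0.05, 0.09 and 0.20, and a dimmer probe set of GRIK1 by 0.07. The GRIK5 probe set, at 9.08 to 9.67, is marked as able to bind related transcripts, and a dimmer one of GRIK5 read 5.62 to 5.99. Of the 21 receptor genes, 4 (GRM8, GRIA2, GRIA4 and GRIK4) had no overlap between groups, beside 35.4% of all genes and 16.0% of dim genes.

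Among associated and scaffold proteins none of 5 was called, and HOMER1 and HOMER2 pointed in opposite directions. HOMER proteins link metabotropic receptors to calcium stores. HOMER2 was at 7.41, 7.38 and 7.65 in SUM44 and at 7.78, 8.14 and 7.90 in LCCTam, with no overlap. Its difference was 0.46 ± 0.13 SE, or 1.38-fold (adjusted p = 0.0568), and the alternatives ranged from 0.0132 to 0.2. It was called without LCCTam replicate 1, among genes above the median of gene means and with the mean of each gene's probe sets.

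HOMER1 was at 7.15, 6.69 and 6.87 in SUM44 and at 7.21, 6.10 and 5.12 in LCCTam. LCCTam replicate 1 lay above all SUM44 arrays and the other LCCTam arrays below them, so the SD was 1.05 in LCCTam beside 0.23 in SUM44. The difference was -0.76 ± 0.46 SE (adjusted p = 0.311), -1.29 without LCCTam replicate 1 (adjusted p = 0.00495) and -0.25 without LCCTam replicate 3 (adjusted p = 0.701). HOMER3 differed by 0.14, from a probe set marked as able to bind related transcripts. DLG4, the scaffold PSD-95 of excitatory synapses, differed by 0.26, while a dimmer probe set of DLG4 gave -0.15. GRINA, a membrane protein named for its link to the NMDA receptor, differed by -0.17, and its spread came from SUM44 replicate 3, at 10.69 beside 9.58 and 9.75.

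Set against each other, 2 of 9 enzymes and 0 of 21 receptor genes were called, and that contrast was not tested. Signal level differed between these sets. Of the 9 enzymes 8 were not dim, and 19.9% of all such genes were called. Of the 21 receptor genes 11 were dim, and 2.11% of all dim genes were called. The enzymes had the wider range of differences, from -0.28 to 0.92, and the medians (0.04, beside 0.16 for the receptor genes) had no stable order. After cyclic loess the enzyme median turned to -0.07, with all genes at 0.00, whereas without LCCTam replicate 3 it was 0.21 beside 0.06 for the receptor genes. Among genes above the median of gene means it was 0.32 for 7 enzymes beside 0.16 for 3 receptor genes. The receptor genes' positive median rested on a part of the LCCTam arrays. Measured from each gene's SUM44 mean, their median was -0.06 in LCCTam replicate 1, 0.13 in replicate 2 and 0.35 in replicate 3, beside -0.01, 0.09 and 0.16 over all genes. In the SUM44 arrays it was between -0.07 and 0.07. The markers of astrocytes, fibroblasts and leukocytes gave 0.36, 0.34 and 0.32 in LCCTam replicate 3, with 0 of 13 measured markers called. The neuronal markers gave 0.06 there and the luminal markers -0.38. The part of that shift in the receptor values was not tested.

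**Figure D4:**
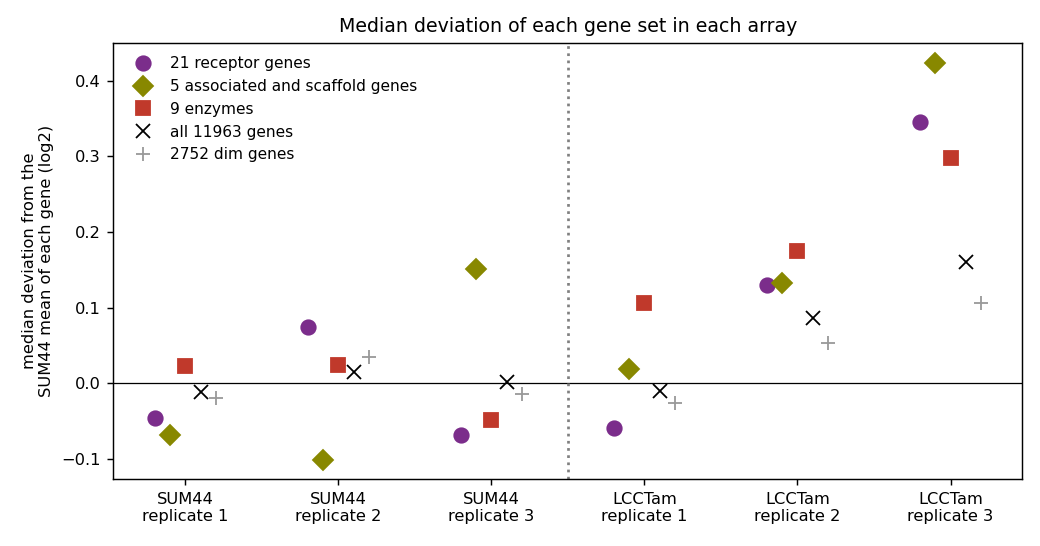
The median deviation from each gene's SUM44 mean (log2, vertical axis) is plotted for each array and gene set, with symbols as in the key. The receptor genes lie at -0.06, 0.13 and 0.35 in LCCTam replicates 1, 2 and 3, and the enzymes at 0.11, 0.17 and 0.30.

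Genes of the wider glutamate pathway beyond the list were called in both directions. Of 55 measured in 7 groups, 7 were higher and 6 lower in LCCTam, beside 15.8% of all genes called. All 13 were among the 51 that were not dim, where 19.9% of all such genes were called, and no test set these genes against the members or the rest. Among carriers of the plasma membrane 3 of 12 rose and 1 fell. SLC1A4 rose by 1.65 ± 0.11 SE and SLC7A11, which exports glutamate for cystine, by 1.73 ± 0.18, while SLC1A1, a glutamate importer, fell by 0.91 ± 0.19. A dimmer probe set of SLC1A1 gave -0.15. SLC1A5, a glutamine carrier, rose by 1.06. In the dimmer probe sets of SLC7A11 (0.98 and 0.65, not called) LCCTam replicate 1 alone stood far above the rest, at 7.95 and 7.36. SLC7A11 was not called when its 3 probe sets were averaged (1.12, adjusted p = 0.0735).

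Of the vesicular and mitochondrial carriers, 1 of 6 was called. SLC25A13 (citrin), which exports aspartate from mitochondria in exchange for glutamate, fell from 8.19, 8.08 and 7.99 in SUM44 to 7.14, 7.03 and 6.70 in LCCTam. The groups were far apart, and the difference was 2.18-fold (-1.13 ± 0.14 SE, adjusted p = 0.00237). SLC25A12, the other aspartate-glutamate carrier, differed by -0.18 and the glutamate carrier SLC25A22 by 0.23 (adjusted p = 0.281). SLC25A13 was therefore lower in the line in which GOT2, which makes the aspartate it carries, was higher.

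Of 7 amidotransferases that take nitrogen from glutamine, ASNS rose by 3.02 ± 0.15 SE and CAD, of pyrimidine synthesis, by 0.72 ± 0.14. The other 5 were not called, with differences from -0.74 for GFPT1 to 0.44 for PFAS. In the proline, ornithine and serine branch 1 of 6 was called. PRODH, the first enzyme of proline breakdown to glutamate, was at 8.58, 8.51 and 8.77 in SUM44 and at 9.58, 9.82 and 10.30 in LCCTam, 2.43-fold higher (1.28 ± 0.19 SE, adjusted p = 0.00479). ALDH4A1, the next enzyme of that path, differed by -0.54 (adjusted p = 0.142), and the synthesis enzymes ALDH18A1 and PYCR1 by 0.12 and 0.12.

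Both subunits of the enzyme that commits glutamate to glutathione were lower. GCLC, the catalytic subunit of glutamate-cysteine ligase, was at 10.73, 10.72 and 10.77 in SUM44 and at 9.87, 9.26 and 9.10 in LCCTam, 2.52-fold lower (-1.33 ± 0.19 SE, adjusted p = 0.00459). Its modifier subunit GCLM fell by 0.51 ± 0.12 SE, and a dimmer probe set of GCLC fell by 1.11. GSS, which acts next, differed by 0.30 (adjusted p = 0.118), and its dimmer probe set by 0.43 (adjusted p = 0.051 among all probe sets). The mean of both was called higher (0.37, adjusted p = 0.0465). The probe sets of the genes that break down the GABA that GAD1 makes disagreed, for ALDH5A1 in size alone. For ABAT, the transaminase of the first step, the brightest probe set differed by 0.02, with an interval of -0.29 to 0.33, while the others were called lower, at -1.15 and -0.83 (adjusted p = 0.0168 and 0.0209 among all probe sets). The mean of the 3 was called lower (-0.66, adjusted p = 0.0102). For ALDH5A1, the dehydrogenase of the next step, the brighter probe set differed by 0.19 (adjusted p = 0.254), while the dimmer read 4.75, 4.51 and 4.64 in SUM44 and 6.44, 6.31 and 5.80 in LCCTam and was called higher (1.55, adjusted p = 0.00194). The mean of both was called higher (0.87, adjusted p = 0.00223). No direction is therefore given for ABAT. For ALDH5A1 both probe sets read higher in LCCTam, but the interval of the brighter one ran from -0.05 to 0.43. The size of the ALDH5A1 difference is therefore uncertain.

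Among 7 genes around 2-oxoglutarate, IDH2, the mitochondrial NADP-dependent isocitrate dehydrogenase, rose by 0.52 ± 0.11 SE. Its cytosolic counterpart IDH1 fell by 0.84 ± 0.19 SE and IDH3A, a subunit of the NAD-dependent enzyme, by 0.54 ± 0.15. After centring on array medians IDH3A was not called (adjusted p = 0.0542), and its other probe set gave -1.21 (adjusted p = 0.058). The malate dehydrogenases MDH1 and MDH2, which complete the shuttle with GOT1 and GOT2, differed by -0.14 and -0.10. Of 12 auxiliary and synaptic scaffold proteins 0 were called, and 2 (NSF at -0.64 and DLG1 at -0.89) had an unadjusted p under 0.05. The 4 dimmer probe sets of DLG1 ran from -1.23 to 0.27, and 1 of them (-0.64) was called. NSF and DLG1 were called without LCCTam replicate 1 (adjusted p = 0.00431 and 0.00155).

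The calls of SLC1A4, SLC7A11, SLC25A13, ASNS, PRODH and GCLC were kept without each array in turn. Leaving out SUM44 replicate 1 or 3 ended that of SLC1A1 (adjusted p = 0.0788 and 0.0817). Those of SLC1A5 and CAD were lost without LCCTam replicate 2 (0.0706 and 0.0697) and SUM44 replicates 1 (0.0754 and 0.0727) and 2 (0.0718 and 0.0668). Those of GCLM, IDH1 and IDH2 were lost without LCCTam replicate 2 (0.0993, 0.113 and 0.0986) and without each SUM44 array (0.0716 to 0.111). IDH3A kept its call only without LCCTam replicate 1 (0.00451) and was otherwise at 0.0618 to 0.167.

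**Figure D5:**
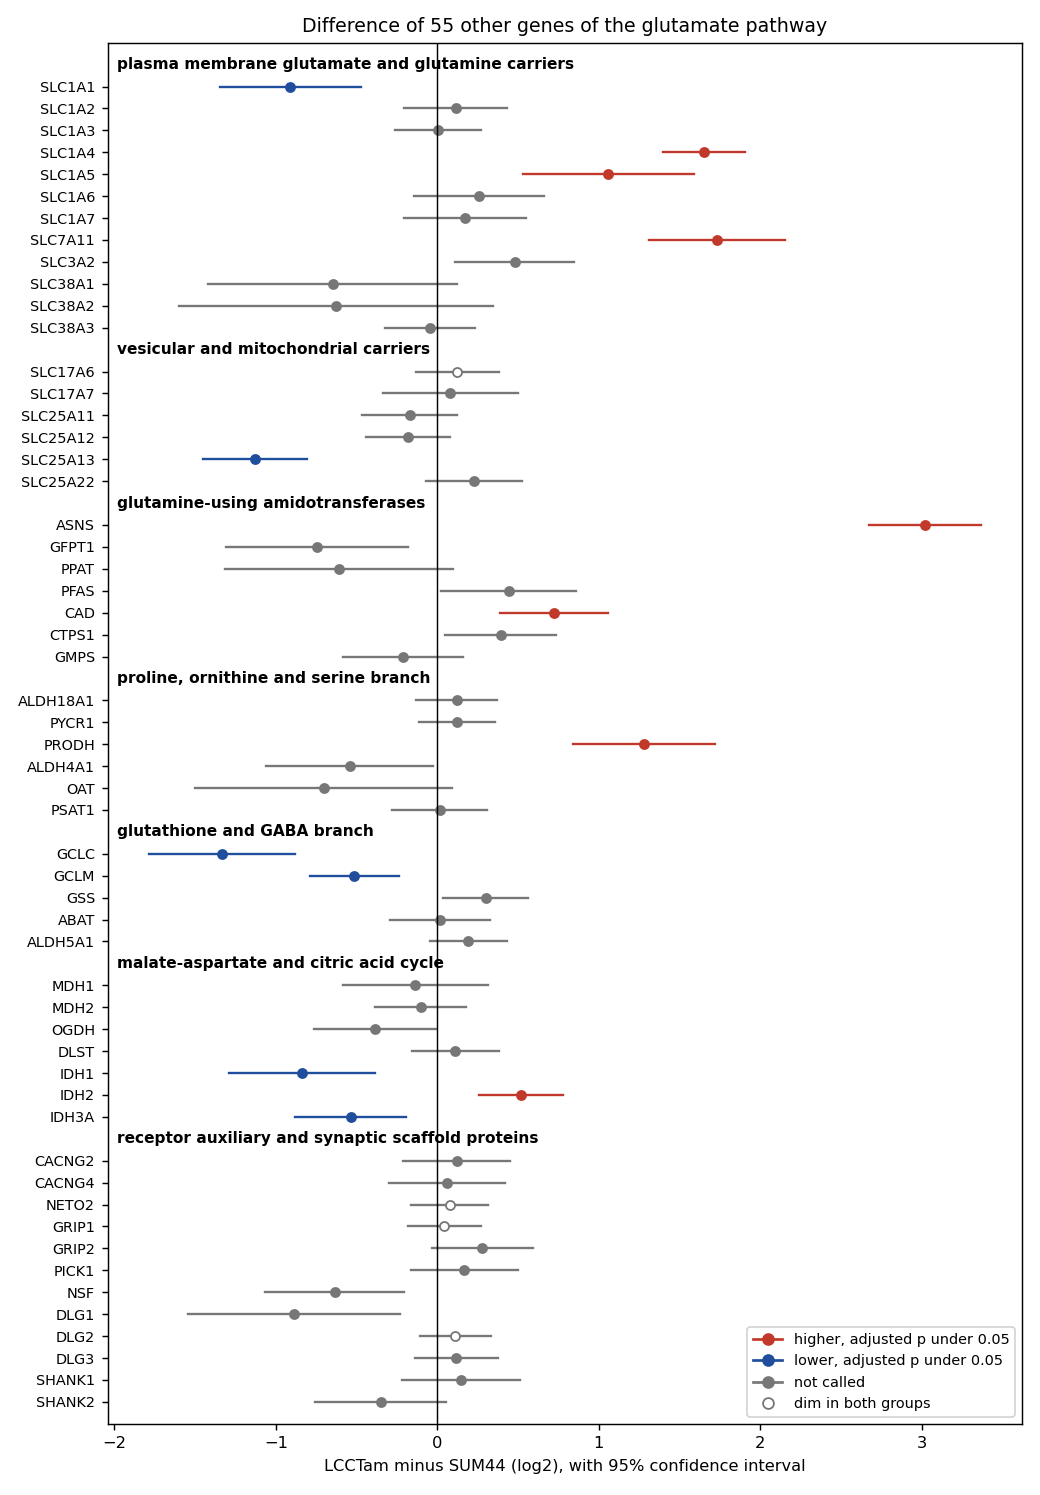
The difference between LCCTam and SUM44 (log2, horizontal axis) is plotted for 55 other genes of the pathway in 7 groups, with 95% confidence intervals; red and blue mark genes called higher and lower, and open circles genes that were dim in both groups. ASNS (3.02) lies farthest to the right and GCLC (-1.33) farthest to the left.

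Markers of the labelled cell type read above the dim limit, apart from PGR. The luminal keratins KRT8, KRT18 and KRT19 read 10.8 or more in every array, and GATA3, FOXA1, EPCAM and ESR1 were above the dim limit in both groups, whereas PGR, the progesterone receptor, was dim at 3.89 to 4.34. Of these 8 genes, KRT8, KRT18, KRT19 and ESR1 were called lower and GATA3 higher in LCCTam, beside 6.60% and 9.18% of all genes. Lying above the dim limit did not set cell types apart. Of measured markers, 2 of 4 for astrocytes, 3 of 6 for fibroblasts and 3 of 3 for leukocytes were not dim. The same held for 4 of 6 neuronal markers. Of 6 measured neuronal markers 0 were called, with a median difference of -0.05, beside the higher GAD1. Among them 2 were positive and 4 negative. SYP differed by 0.20 and TUBB3 by 0.25, each with all LCCTam arrays above all SUM44 arrays (adjusted p = 0.2455 and 0.1525). MAP2 differed by -0.41, with all LCCTam arrays below (adjusted p = 0.142), and SNAP25, NEFL and STMN2 by -0.07, -0.03 and -0.09. NEFL and STMN2 were dim. TUBB3 stood well above the dim limit at 10.33 to 10.73, from a probe set marked as able to bind related transcripts.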

How the data were processed

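Total RNA of 6 cultures was labelled with biotin and read on 6 Affymetrix arrays, per the labels' protocols. The authors deposited a log2 level for each probe set, computed by RMA (background correction, quantile normalisation and probe summary), per the submitters' processing notes. Its version is not given in the sources used here. Normalising by quantiles hides a change in total RNA per cell. Values ran from 3.16 to 14.6. Of 22283 probe sets, 68 were controls, and 19065 were annotated to 1 gene. For 19053 of them the symbol was taken, through the gene ID, from the RefSeq table of GRCh38.p14.

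Groups were taken from the sample titles. Nothing further is said of how cultures were separated, so p-values reflect only how far these cultures vary. The 11963 genes were fitted with limma 3.58.1 (lmFit, eBayes; R 4.3.3), two-sided, with Benjamini-Hochberg adjustment over all genes. Confidence intervals come from that fit, with 4 residual and 3.51 prior degrees of freedom. With 3 arrays in a group, their number bounds the precision. The script was tested on simulated data. The simulated noise was independent between arrays and of equal spread in both groups. That test therefore does not cover the wider spread among the LCCTam arrays. The genes and lists were chosen with earlier results of these data known. By rule, arrays are given in full for members called or at an unadjusted p under 0.05. The same holds for the member with the largest absolute difference in each of 6 role groups. GLUD1 is given in full outside that rule. Of each pathway list the 2 genes with the smallest p are named, and others were named after their values were seen. Alternatives changed 1 choice at a time.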

Additional observations from a re-analysis of the deposited data

How the results depend on the processing

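The 11 members chosen by rule for full values had 14 alternatives each at most. None of the 11 changed direction, and 130 of 147 values kept both direction and side of the threshold. These 11 were chosen for a small p or the largest difference in their role group, which favours a stable direction. Some other members did reverse. Without LCCTam replicate 3, GLUD1 turned from -0.04 to 0.21 and GRIA1 from 0.05 to -0.04. GAD1 was called in all 14. The count of genes higher in LCCTam was 2 of 35. It was 1, as was the count of enzymes called, after centring on array medians, after cyclic loess and at an adjusted p under 0.01, where all genes called were 723 and pathway genes called 6. The genes higher numbered 3 with the mean of each gene's probe sets, among genes above the median of gene means and with a trend and robust fit, which called 1 receptor gene. With an array left out, ranges were 1 to 7 for genes higher, 0 to 1 for genes lower, 1 to 4 for enzymes, 0 to 2 for receptor genes, 6 to 22 for pathway genes and 751 to 4241 for all genes. The upper end of each was without LCCTam replicate 1. With the replicate number as a block, 1 of the 35 genes was called higher, 1 enzyme, 17 pathway genes and 2152 genes in all, and GOT2 lost its call (adjusted p = 0.0644). Same-numbered deviations from the group means correlated at 0.49, 0.35 and -0.05, and SUM44 replicate 3 correlated best with LCCTam replicate 1. The main fit did not use the numbers as pairs. Deviations from a mean of 3 arrays depend on each other, so these correlations cannot show whether the samples were paired. Without detection calls, dim signals (11 of the 12 dim members are receptor genes) have no measured distance from background.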
